A study of Solanum lycopersicum with 30 samples.

Results

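Leaves of tomato plants labelled resistant (N) and of plants labelled susceptible (n) were compared 9 h after they were challenged with tobacco mosaic virus (TMV). The comparison rests on 7 of the 30 2-colour arrays of the study, the 4 titled as resistant at 9 h and the 3 titled as susceptible at 9 h. The arrays were grouped by their titles, and the comparison was chosen with earlier results of these data known. On each array RNA from a leaf of 1 plant treated with TMV sap was labelled with Cy3, and RNA from a leaf of 1 plant of the same genotype treated with mock leaf sap was labelled with Cy5. The plants were 28 to 35 days old and had been kept at 25 °C under a 16 h day and an 8 h night, and 25 µg of total RNA was labelled per sample. The labels name the N locus as the difference between the genotypes and give no cultivar or line. The other arrays of the study, which hold the same 2 genotypes at 3 and 27 h and the sun1-1 mutant of N plants at all 3 times, served to estimate the spread between arrays and as a reference for the time.

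TMV is an RNA virus that spreads from cell to cell and then through the whole plant. N is a resistance gene first isolated from Nicotiana, and its product is an intracellular receptor of the nucleotide-binding, leucine-rich-repeat class that recognises the viral replicase. In plants with N that recognition is known to set off a hypersensitive response, in which a burst of reactive oxygen, salicylic acid signalling, pathogenesis-related proteins and local cell death hold the virus at the site of entry. Plants without a working N allele lack this recognition, and the virus moves on.

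Each value is a deposited log2 ratio of the 2 channels. The labels do not say which channel is the numerator, so every sign is given as deposited. "Higher in resistant leaves" means a more positive deposited ratio, and it does not say whether the virus raised or lowered the transcript. The ratio sets 2 plants against each other, so differences between the TMV plant and the mock plant that are unrelated to the virus are part of it. Taking the difference between genotypes removes a dye effect that is the same on every array, and dyes were not swapped on any array.

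At 9 h no measured gene passed the adjusted threshold between resistant and susceptible leaves. The transcript with the smallest p was LOC102598365, whose mean log2 ratio was 1.44 higher in resistant leaves (SE 0.324). PR1B, one of the pathogenesis-related PR-1 proteins by which salicylic acid signalling is often followed, was higher by 1.30 (SE 0.764), but its 3 resistant arrays ran from strongly positive to strongly negative. SHMT, serine hydroxymethyltransferase, was lower in resistant leaves by 0.55 (SE 0.203), with negative ratios on 4 of 4 resistant arrays and positive ratios on 3 of 3 susceptible arrays.

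A total of 5476 clones of the array had a value on at least 2 arrays of each genotype, and 611 of them carried exactly 1 gene symbol. For symbols, every clone of a symbol with a value on an array was averaged, also clones with too few values to be tested alone. The values of a symbol can therefore come from different clones on different arrays. That gave 331 symbols with a value on at least 2 arrays of each genotype, of which 209 had a value on all 7 arrays. Of the symbols 155 were higher and 176 lower in resistant leaves, with a median difference of -0.02 and quartiles at -0.22 and 0.20. At a Benjamini-Hochberg adjusted p under 0.05, limma called 0 of 331 symbols (0%) and 0 of 5476 clones (0%), and the lowest adjusted p was 0.0642 among symbols and 0.256 among clones. At an unadjusted p under 0.05 there were 10 higher symbols (3.02%) and 9 lower symbols (2.72%), together 19 (5.74%). Among clones there were 134 higher (2.45%) and 216 lower (3.94%), together 350 (6.39%). Where all 7 arrays had a value, the 2 genotypes did not overlap for 7 higher symbols (3.35%) and 12 lower symbols (5.74%) of 209, and for 59 higher clones (3.21%) and 112 lower clones (6.09%) of 1839. Over everything tested, with fewer arrays for many, the shares without overlap were 5.14% and 6.65% of symbols and 8.53% and 10.4% of clones, higher and lower in turn.

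The precision was limited. The 95% confidence interval of a symbol's difference had a median half-width of 0.60 on the log2 scale, from 0.32 to 1.57. For 227 of 331 symbols (68.6%) the whole interval lay within a 2-fold difference either way, and for the others it reached past 2-fold in at least 1 direction. Among clones 3576 (65.3%) had an interval within 2-fold. A difference that missed the threshold therefore does not show that the genotypes responded alike.

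The gene symbols are those of the platform annotation, and 0 of their 430 gene identifiers were in the tomato gene table used here, so that they belong to tomato genes was not established. Roles given below are those known for the symbol. Of 44 symbols of known function, in 11 lists, 37 could be tested, 18 higher and 19 lower in resistant leaves, with a median difference of -0.01 against -0.02 over all 331 symbols. None of the 37 passed the adjusted threshold (0% of all symbols did), and 2 of them, SHMT and 16R, had an unadjusted p under 0.05.

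**Figure D1:**
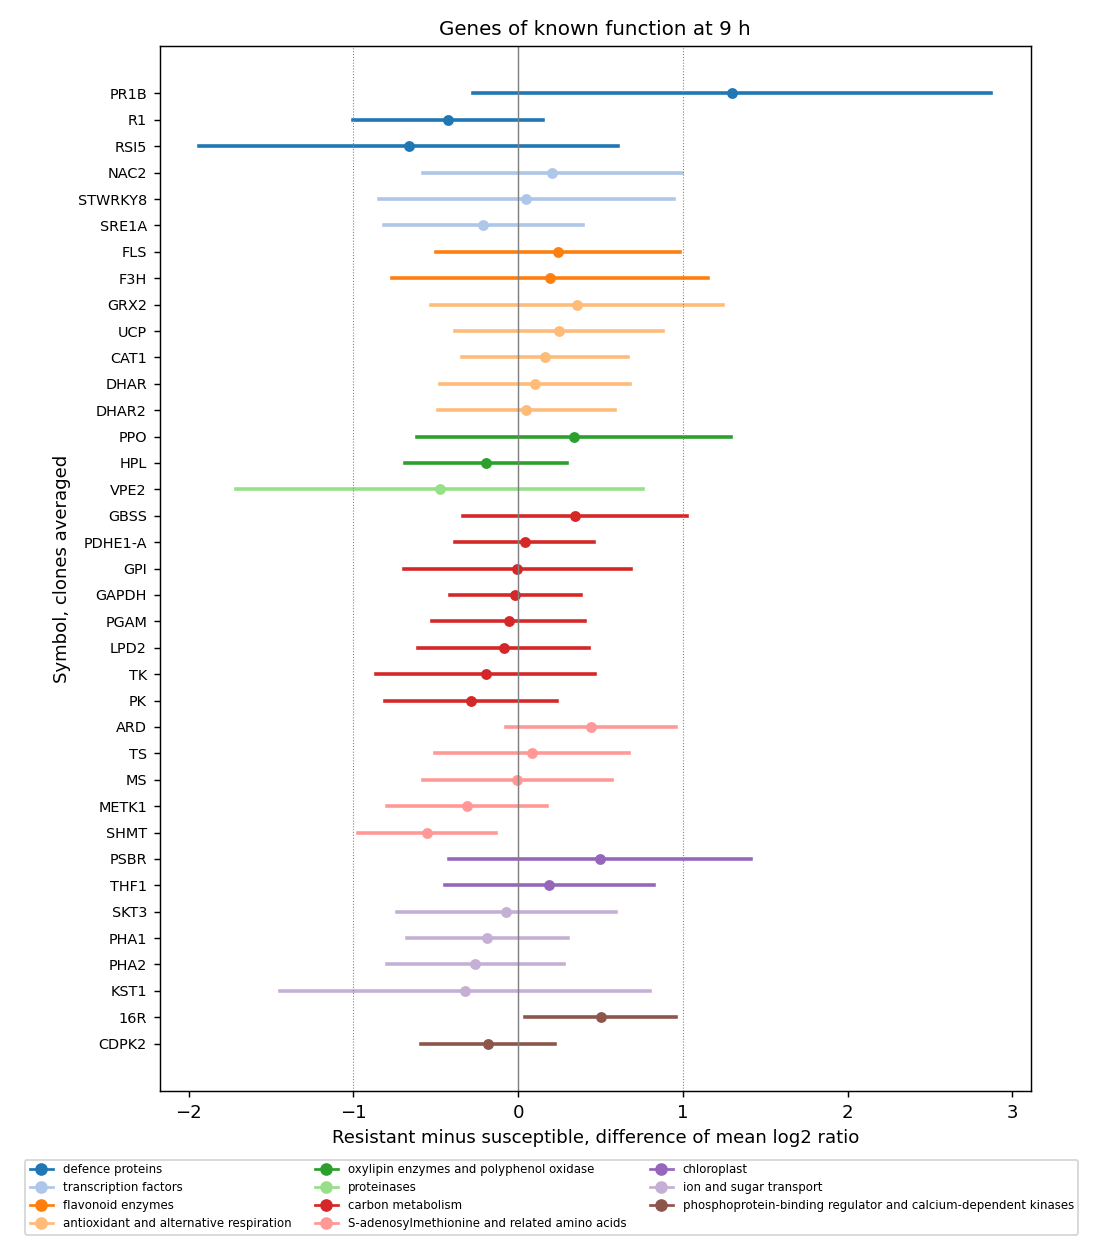
Difference between resistant and susceptible leaves in mean log2 ratio at 9 h (x axis) for 37 symbols of known function (y axis), coloured by list, with points for the difference and bars for its 95% confidence interval from limma; dotted lines mark 2-fold. The intervals of SHMT and 16R leave out 0, those of PR1B, RSI5 and VPE2 are among the widest, and most points lie within 0.5 log2 units of 0.

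Among proteins of defence, PR1B gave log2 ratios of 3.57, 1.40 and -1.35 on resistant replicates 1, 2 and 3, had no value on replicate 4, and gave -0.80, 0.49 and 0.040 on the 3 susceptible arrays. The highest and the lowest value of PR1B at 9 h were therefore both from resistant leaves, and the genotypes overlapped. The resistant mean was 1.21 (SD 2.47, n = 3), the susceptible mean was -0.09 (SD 0.66, n = 3), and the interval of their difference ran from -0.27 to 2.87 (limma, adjusted p = 0.789). Both clones of PR1B followed the same course over the arrays: 1 gave 3.22, 1.48 and -1.34 on the 3 resistant arrays, and the other gave 3.93, 1.32 and -1.36. The spread of PR1B thus lay between arrays and not between its clones.

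R1 was placed in the list of defence proteins by its symbol, and which gene that symbol stands for was not established. It gave -0.64, 0.10 and -0.25 on 3 resistant arrays and 0.43, 0.021 and 0.045 on the susceptible arrays, a difference of -0.43 (SE 0.281). RSI5 gave 0.61, 0.088 and -0.26 on resistant and 1.85, 0.32 and 0.27 on susceptible arrays, a difference of -0.66 (SE 0.615). For both symbols the values of the genotypes overlapped. Without susceptible replicate 1, where RSI5 was at 1.85, its difference was -0.15.

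The transcription factors of the list gave small differences with wide intervals. STWRKY8, a member of the WRKY family that holds many regulators of plant defence, was positive on all 7 arrays, with 0.32, 0.94, 0.49 and 0.50 on the resistant and 0.75, 0.59 and 0.20 on the susceptible arrays. Its means were 0.56 (SD 0.26, n = 4) and 0.51 (SD 0.28, n = 3), and the difference of 0.05 had an interval from -0.85 to 0.95 and turned to -0.032 with the arrays scaled to one spread. NAC2, of the NAC family, differed by 0.21 (SE 0.362, 2 arrays a side) and SRE1A by -0.21 (SE 0.293).

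Of the antioxidant and respiratory proteins, 5 of 6 could be tested and all 5 lay slightly higher in resistant leaves, by 0.05 to 0.36, with 0 calls and no unadjusted p under 0.05. Over all symbols 155 of 331 were higher, and CAT1, DHAR and DHAR2 changed sign when single arrays were left out. CAT1, a catalase, which breaks down hydrogen peroxide, had 1 clone higher and 2 clones lower, and its average gave -0.0050, 0.78, -0.034 and 0.28 on the resistant arrays and 0.28, 0.040 and -0.041 on the susceptible arrays. Its difference of 0.16 (SE 0.246) went to -0.01 without resistant replicate 2, the array of its highest value. DHAR and DHAR2, dehydroascorbate reductases that regenerate ascorbate, differed by 0.10 (SE 0.280) and 0.05 (SE 0.261). GRX2, a glutaredoxin, differed by 0.36 (SE 0.421), and UCP, an uncoupling protein of mitochondria, by 0.25 (SE 0.300), each from 2 arrays a side. AOX, the alternative oxidase, had a value on 1 array of each genotype and was not tested.

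Both flavonoid enzymes lay slightly higher in resistant leaves, FLS, flavonol synthase, by 0.24 (SE 0.360) and F3H, flavanone 3-hydroxylase, by 0.19 (SE 0.464). F3H gave 0.85 on resistant replicate 1 and -0.92 on replicate 2, so its resistant arrays spanned more than its 3 susceptible arrays, which lay between -0.33 and 0.030. Of the oxylipin and phenolic oxidases, HPL, hydroperoxide lyase, differed by -0.19 (SE 0.240) and PPO, polyphenol oxidase, by 0.34 (SE 0.464). PPO stood at -1.56 on susceptible replicate 3 and between -0.38 and 0.56 on the other 6 arrays, and without that array its difference was -0.32.

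VPE2, a vacuolar processing enzyme, belongs to a group of proteinases known for a part in virus-induced hypersensitive cell death in tobacco. Its ratio was -1.32 on resistant replicate 1, 1.28 on replicate 2 and -0.39 on replicate 3, against 0.087, 0.23 and 0.69 on the susceptible arrays. Resistant replicates 1 and 2, both strongly positive for PR1B, thus stood at opposite ends for VPE2. The difference of -0.48 (SE 0.601) became 0.11 without replicate 1 and -1.19 without replicate 2.

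Enzymes of carbon metabolism gave differences near 0, again with 0 calls. Of 8 tested, 2 were higher and 6 lower in resistant leaves, with a median of -0.04 and a range from -0.29 to 0.34, though GAPDH turned to 0.036 with the arrays scaled to one spread and GPI, glucose-6-phosphate isomerase, to 0.00060 with the arrays centred. GAPDH, the glycolytic enzyme measured by 8 clones, differed by -0.02 (SE 0.192) with an interval from -0.41 to 0.38, 3 of its clones being higher and 5 lower. PK, pyruvate kinase, lay lowest at -0.29 (SE 0.255) and GBSS, granule-bound starch synthase, highest at 0.34 (SE 0.330). GBSS was at 1.01 on resistant replicate 2 and between -0.36 and 0 on the 6 others.

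The enzymes around serine, methionine and S-adenosylmethionine, the methyl donor of the cell and precursor of ethylene, held the smallest p among symbols of known function. That p was of SHMT. SHMT and METK1 were among the 17 list symbols added after the symbols on the array were read, while ARD, MS and TS were not. SHMT, which makes glycine and one-carbon units from serine, gave -0.47, -0.09, -0.40 and -0.26 on the resistant arrays and 0.23, 0.30 and 0.21 on the susceptible arrays. Every resistant array was negative and every susceptible array positive. Such a split by sign, in either direction, was seen for 4 of 209 symbols with a value on all 7 arrays. Over all 331 symbols tested, many with fewer arrays, it was seen for 14. The difference of -0.55 (interval from -0.97 to -0.13) had an exact permutation p of 0.0286, two-sided, which is the smallest that 4 arrays against 3 can give, and a limma adjusted p of 0.771. Among the symbols named by the rule, LOC102577737, LOC102604696 and LOC102577512 gave the same exact p. It was taken for named symbols only, so its share over all symbols is not known. SHMT was measured by 1 clone. ARD, acireductone dioxygenase of the methionine salvage cycle, gave 0.29, 0.65 and 0.14 on resistant arrays and 0.0050, 0.027 and -0.28 on susceptible arrays, without overlap, a difference of 0.44 (SE 0.251). METK1, S-adenosylmethionine synthetase, differed by -0.31 (SE 0.237), with 7 of its 9 clones lower, and -0.13 without susceptible replicate 1, where it stood at 0.57. MS, methionine synthase, differed by -0.01 (SE 0.280), or 0.031 with the arrays scaled, and TS, threonine synthase, by 0.09 (SE 0.281).

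PSBR, a subunit of photosystem II in the chloroplast, was the only one of the 7 leaf markers searched for that could be measured here, and a ratio carries no level of a transcript. It gave 0.41, 1.29, -0.085 and 0.19 on the resistant arrays and -0.50, 0.30 and 0.062 on the susceptible arrays. The genotypes overlapped, and the difference was 0.50 (SE 0.445), or 0.22 without resistant replicate 2. All 5 tested clones of PSBR were higher in resistant leaves, by 0.13 to 1.09. THF1, a protein of thylakoid formation, differed by 0.19 (SE 0.308).

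All 4 tested transporters lay slightly lower in resistant leaves, with 0 calls: the plasma membrane proton pumps PHA1 and PHA2 by -0.19 (SE 0.238) and -0.26 (SE 0.261), and the potassium channels KST1 and SKT3 by -0.32 (SE 0.539) and -0.07 (SE 0.320). Over all symbols 176 of 331 were lower, and SKT3 changed sign without resistant replicate 1 or 2. 16R, a regulator that binds phosphorylated proteins, gave 0.45, 0.22, 0.049 and 0.50 on the resistant arrays and -0.25, 0.23 and -0.57 on the susceptible arrays, with a difference of 0.50 (SE 0.223, adjusted p = 0.771 by limma). Susceptible replicate 2 lay among the resistant values. Of its 3 clones only 1 could be tested, and that clone differed by 0.25, while a second clone, with values on 3 of the 7 arrays, entered the average. CDPK2, a calcium-dependent protein kinase, differed by -0.18 (SE 0.198). POTLX-3, PAIN-1, ADH1, AMYA1, SUT2 and CDPK1 had too few values for a test.

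Most symbols with the smallest p had no further name than their identifier. LOC102598365 gave 1.05 and 0.97 on resistant replicates 1 and 3, no value on replicates 2 and 4, and -0.68, -0.56 and -0.072 on the susceptible arrays. The 2 resistant values were higher than all susceptible values by more than 1 log2 unit. The means were 1.01 (SD 0.05, n = 2) and -0.44 (SD 0.32, n = 3), and the difference of 1.44 had an interval from 0.77 to 2.12 and a limma adjusted p of 0.0642. It was measured by 1 clone. Its difference was 1.32 to 1.63 with 1 array left out where both genotypes kept 2 arrays, and without susceptible replicate 3 it passed the test among 315 symbols at 1.63 (adjusted p = 0.0455, against 0.0129 to 0.416 over all alternatives). It also passed with the arrays scaled to one spread (adjusted p = 0.0129), with array quality weights (0.0262) and with the replicate number as a block (0.0305). With only the 7 arrays of the comparison in the fit, limma called 0 symbols (lowest adjusted p = 0.112). With at least 3 arrays a side required, LOC102598365 could not be tested.

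LOC102594491 gave 0.75 and 1.12 on resistant replicates 1 and 2 and -0.18, -0.10 and -0.23 on the susceptible arrays, again without overlap. The susceptible arrays lay close together, and the difference was 1.11 (SE 0.310, adjusted p = 0.289 by limma). On the lower side LOC102588383 gave -0.70, -0.20 and -0.53 on 3 resistant arrays and 0.36 and 0.32 on 2 susceptible arrays, a difference of -0.82 (SE 0.274, adjusted p = 0.771). Each of these symbols was measured by 1 clone.

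Symbols with several clones gave a second measurement of the same plants. LOC102590282 was measured by 3 clones, all higher in resistant leaves, by 0.74 to 0.96. Averaged, they gave 0.87, 0.55, -0.0077 and 0.28 on the resistant arrays and -0.47, -0.11 and -0.51 on the susceptible arrays, without overlap, a difference of 0.79 (SE 0.347). LOC102577431 was lower for 6 of 6 tested clones, by 0.51 to 0.93. It gave 0.10, -0.55, 0.094 and -0.52 on the resistant arrays and 1.06, -0.12 and 0.31 on the susceptible arrays, so that the genotypes overlapped, and its difference of -0.64 (SE 0.298) went to -0.31 without susceptible replicate 1.

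For LOC102577512 7 of 8 clones were lower, and the difference of -0.48 (SE 0.226) went to -0.23 without the same array. LOC102577567 was higher for 3 of 3 clones, by 0.54 to 0.64, and LOC102586069 lower for 4 of 4. Over the 64 symbols with at least 3 tested clones, 18 had all clones higher, 15 had all clones lower and 31 had clones in both directions. Clones of 1 symbol share the same plants and may share sequence, so their agreement is no replication.

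**Figure D2:**
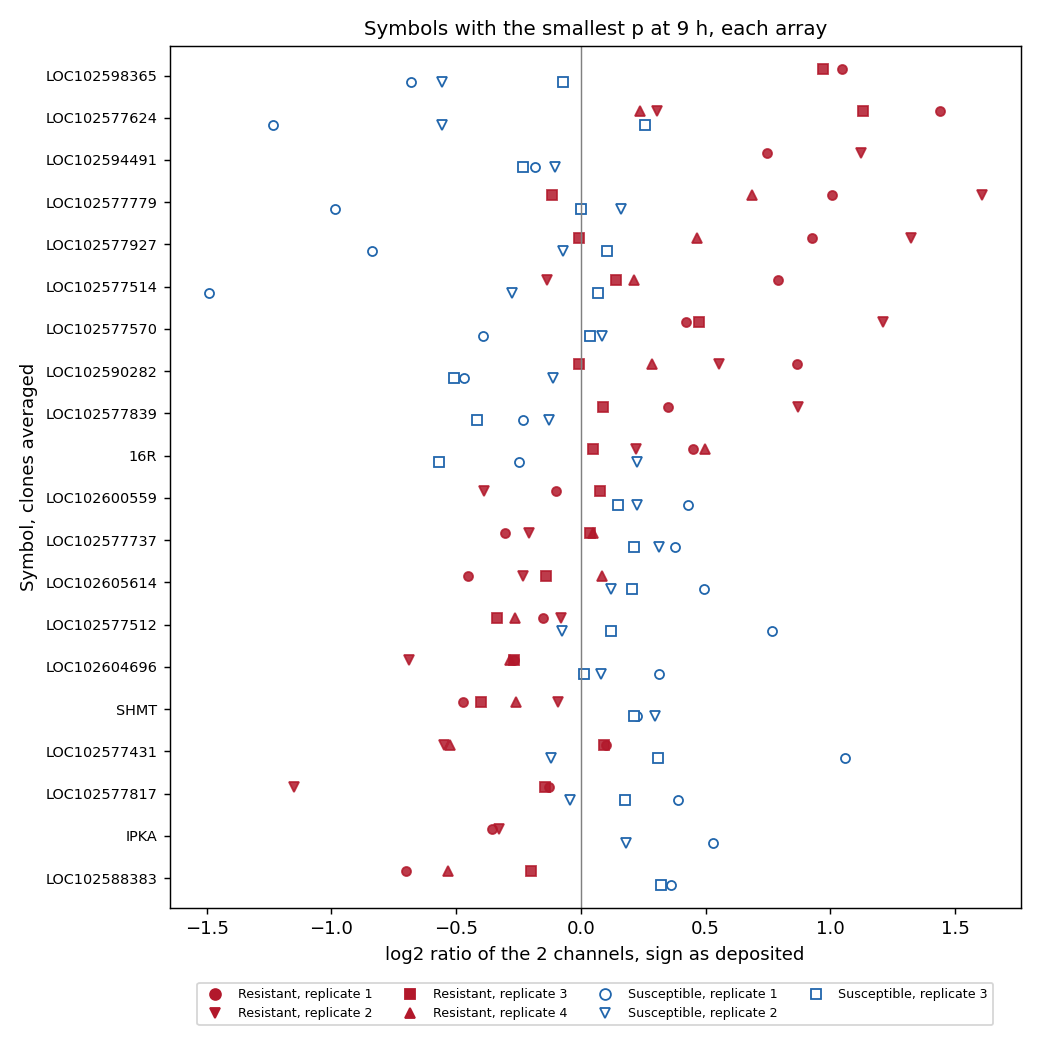
Log2 ratios at 9 h on each array (x axis, sign as deposited) for the 20 symbols named for the smallest p in the fit of symbols, 10 in each direction (y axis). Filled red markers are the resistant arrays and open blue markers the susceptible arrays, with 1 marker shape per replicate. Susceptible replicate 1, the open circle, is the blue marker farthest from the red ones in most rows.

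The symbols with the smallest p depended on single arrays of both genotypes. Of the 19 symbols with an unadjusted p under 0.05, susceptible replicate 1 was the susceptible value farthest from the resistant mean in 14. These symbols were selected by p, and that array had the widest ratios of the susceptible arrays, which favours such a count. The share over all symbols was not taken. Without susceptible replicate 1, 17 could still be tested, all 17 with the same sign. Only LOC102577839, LOC102594491, LOC102598365 and SHMT then kept an unadjusted p under 0.05 by limma. Leaving out resistant replicate 1 kept 6 of the 19 under 0.05 and leaving out resistant replicate 2 kept 8. Leaving out resistant replicate 3 or 4 kept 15 each, and leaving out susceptible replicate 2 or 3 kept 14 each. A symbol with values on only 2 arrays of a genotype could not be tested without 1 of these and was not counted as kept. LOC102594491 and IPKA were untestable without resistant replicate 1 or 2, and LOC102598365 without resistant replicate 1 or 3. LOC102577839 gave 0.35, 0.87 and 0.091 on resistant arrays and -0.23, -0.13 and -0.42 on susceptible arrays, a difference of 0.70 (SE 0.287), or 0.71 without susceptible replicate 1. Of its 4 clones only 1 could be tested alone, and that clone differed by 0.74.

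The larger differences leaned to one side. A difference of 2-fold or more was seen for 5 higher symbols (1.51%) and 0 lower symbols (0%), and for 45 higher clones (0.822%) and 8 lower clones (0.146%). The 5 symbols were LOC102598365, PR1B, LOC102577624, LOC102594491 and LOC102577779. Of the 45 higher clones 21 had a value on only 2 resistant arrays. Their median log2 ratio was 0.93 and 0.95 on resistant replicates 1 and 2, 0.25 and 0.29 on replicates 3 and 4 (6 values on the last), and -0.88, -0.18 and -0.13 on susceptible replicates 1, 2 and 3. The clones were selected by these values, which are given as a description. Without susceptible replicate 1 the counts were 12 higher and 10 lower of 4740 clones that could still be tested. Without resistant replicate 1 they were 27 and 5 of 3686, against 45 and 8 of 5476 with all arrays. The lean was thus small without susceptible replicate 1. The higher clones also fell in number without resistant replicate 1, where far fewer clones could be tested, and the lean remained there. The ratios of susceptible replicate 1 were wider than those of the other susceptible arrays, with an SD of 0.43 against 0.31 and 0.25 across clones. The cause of the lean was not tested.

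Most clones had no symbol. The higher clones of that kind with the smallest p were those of spots 149042 and 142143. The first gave 0.51 and 0.92 on resistant replicates 1 and 2 and -0.54, -0.54 and -0.32 on the susceptible arrays, a difference of 1.18 (SE 0.229). The second gave 1.46, 0.68 and 0.35 on 3 resistant arrays and -1.24 and -0.68 on 2 susceptible arrays, a difference of 1.79 (SE 0.361), the highest of all clones tested. Both had a limma adjusted p of 0.256. The lower clones, of spots 145556 and 138094, differed by -0.93 (SE 0.211) and -0.89 (SE 0.213), each with an adjusted p of 0.360. In all 4 clones every resistant array with a value lay on the opposite side of 0 from every susceptible array with a value. The clones were selected by p from these values, which favours such a split, and its share over all clones was not taken.

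Arrays of the same genotype shared little at 9 h. Across clones, resistant replicate 3 correlated with replicate 1 at r = 0.28 and with replicate 2 at r = -0.25, while replicates 1 and 2 correlated at r = -0.05. Replicates 2 and 4 correlated at r = 0.27. The 3 pairs of susceptible arrays lay between 0.02 and 0.22. The 12 pairs of a resistant and a susceptible array ran from -0.26 to 0.18, with a median of -0.05, against a median of 0.02 over the 9 pairs within a genotype. These values run across clones, which are no independent replicates, and each pair is over the clones measured on both arrays.

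**Figure D3:**
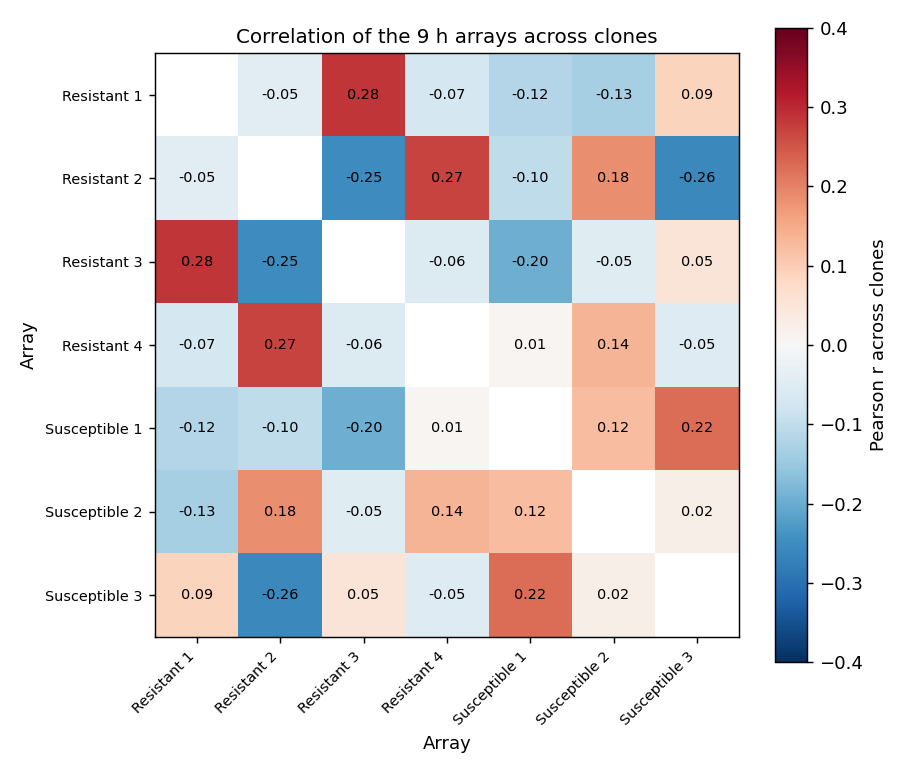
Pearson correlation of log2 ratios across clones for each pair of the 7 arrays at 9 h (rows and columns, colour scale from -0.4 to 0.4). Resistant replicate 3 is positive with replicate 1 and negative with replicate 2, and pairs within a genotype are not all above pairs between genotypes.

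PR1B depended on resistant replicate 3 more than any other symbol. Without that array its difference was 2.58, or 1.28 more than with it, and its limma adjusted p was 0.182. Without resistant replicate 1 the difference was 0.12. Of 285 symbols with a value on replicate 3 that could be tested without it, PR1B was the only one that moved by more than 0.5, the median move was 0.062, and 26 changed sign. LOC102577779 went from 1.07 to 1.37 and LOC102577624 from 1.29 to 1.17. Of the 45 clones that were 2-fold higher, 33 had a value on replicate 3 and 26 of those were positive there. The resistant mean by which these clones were selected includes replicate 3, which favours positive values there, so the count is a description only. Without the array 0 of 321 symbols and 0 of 5111 clones passed, and 68 higher and 16 lower clones differed 2-fold or more. LOC102598365 had a value on 2 resistant arrays and could not be tested without replicate 3.

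**Figure D4:**
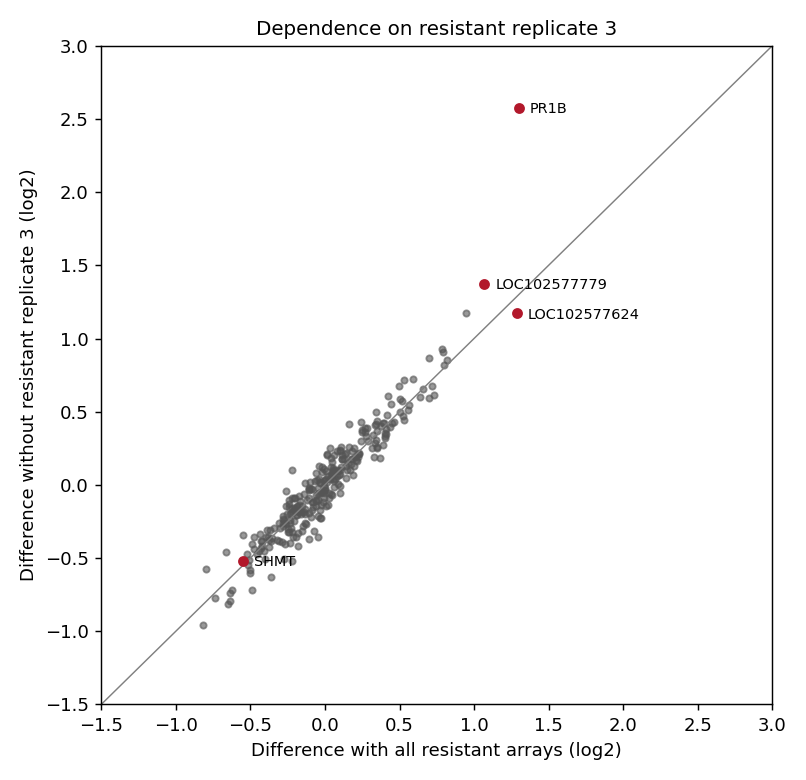
Difference between resistant and susceptible leaves in mean log2 ratio with all resistant arrays (x axis) and without resistant replicate 3 (y axis), 1 point per symbol for 285 symbols, with the line of equal values. PR1B stands off the line at 1.30 and 2.58, and the other points, among them SHMT, lie within 0.5 of it.

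Resistant replicate 4 is titled 9 h, while the protocol of its TMV sample gives 3 h. It was grouped by its title. It gave a value for 2173 clones, the fewest of the 7 arrays, against 4119 to 8628 on the others. Without it 0 of 328 symbols and 0 of 5430 clones passed, and the lowest adjusted p was 0.0651 and 0.261. Of 220 symbols with a value on this array, 21 changed sign without it and the median move was 0.059, with at most 0.31 for LOC102601848. SHMT differed by -0.57 without it, LOC102590282 by 0.83 and 16R by 0.44. PR1B, LOC102598365 and LOC102594491 have no value on replicate 4 and kept theirs. Without both replicates 3 and 4, 0 of 311 symbols and 0 of 4908 clones passed.

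The same difference between genotypes was taken at 3 and 27 h, and its value at 9 h was tested against the mean of those times. No feature passed: limma called 0 of 315 symbols (0%) and 0 of 4663 clones (0%), with 17 symbols (5.4%) and 378 clones (8.11%) at an unadjusted p under 0.05, and lowest adjusted p values of 0.344 and 0.360. LOC102594491 differed by -0.23 at 3 h, 1.11 at 9 h and -0.20 at 27 h, a contrast of 1.33 (SE 0.370, adjusted p = 0.344 by limma). LOC102598365 differed by 0.16, 1.44 and 0.23 at the 3 times, a contrast of 1.25 (SE 0.380) with the same adjusted p. These symbols were named for their values at 9 h, which alone favours a larger difference at that time.

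SHMT differed by -0.19 at 3 h and 0.10 at 27 h. At 27 h all 6 arrays of the genotypes with a value were negative, between -0.34 and -0.022. The susceptible arrays at 9 h, between 0.21 and 0.30, were above those at 3 h, between -0.10 and 0.00050. LOC102577431 went from -0.12 at 3 h to -0.64 at 9 h and 0.66 at 27 h, with a contrast of -0.90 (SE 0.365, adjusted p = 0.699). LOC102577567 was higher in resistant leaves at each time, by 0.27, 0.59 and 0.67, and so was PR1B, by 0.80, 1.30 and 0.58, with contrasts of 0.12 (SE 0.359) and 0.61 (SE 0.919). On the 4 resistant arrays at 3 h PR1B gave 0.72, 0.43, -0.72 and 0.0055, and at 27 h it gave 0.69, 0.080, 1.55 and -0.57. At no time did the resistant values of PR1B lie on one side of 0.

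**Figure D5:**
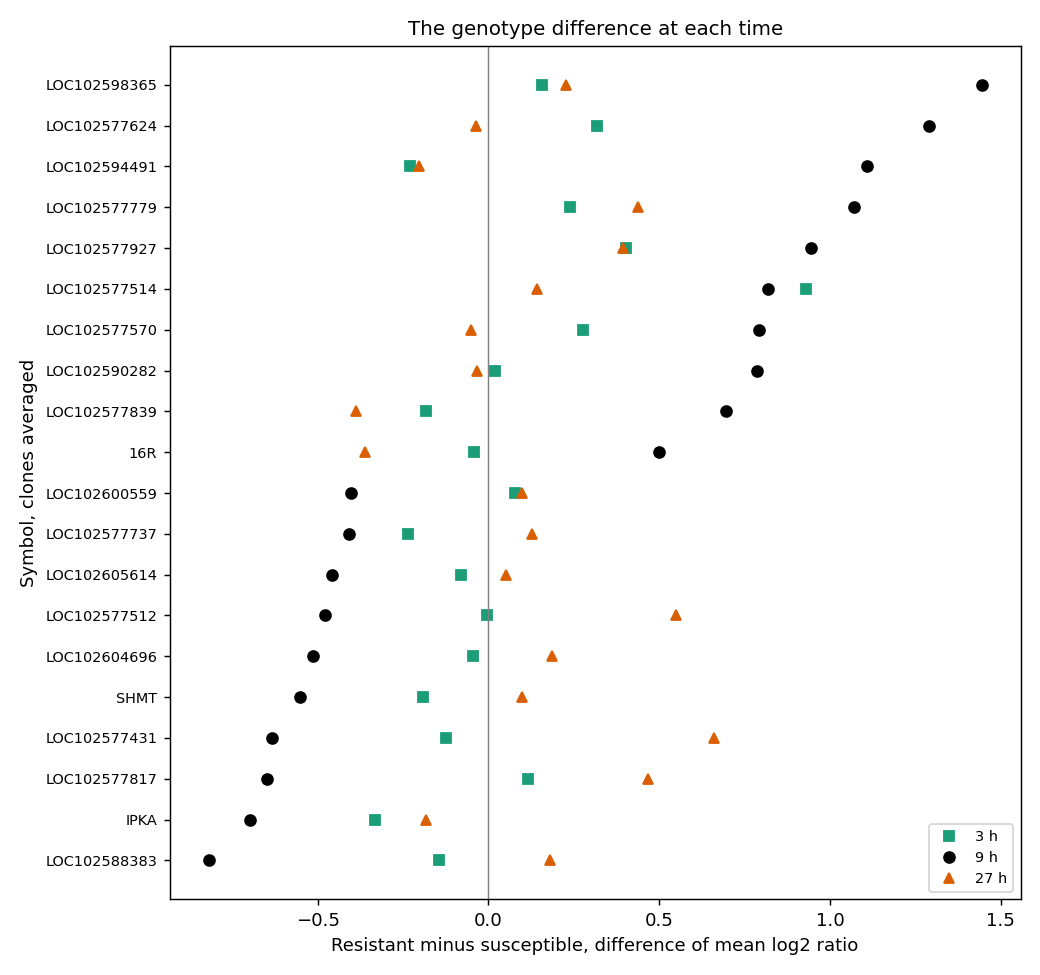
Difference between resistant and susceptible leaves in mean log2 ratio (x axis) at 3 h (squares), 9 h (circles) and 27 h (triangles) for the 20 symbols named for the smallest p at 9 h (y axis). Most 3 h and 27 h values lie nearer to 0 than the 9 h values by which the symbols were named, while LOC102577514 is as high at 3 h.

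The sun1-1 plants, which carry N and are labelled as more susceptible, were not part of the test and give a further set of values at 9 h. LOC102594491 was at -0.27, -0.20 and -0.34 on the sun1-1 arrays, on the side of the susceptible arrays. LOC102598365 gave 0.11, -0.16 and 1.00, and SHMT gave 0.30, 0.098 and -0.20, with values on both sides. PR1B was positive on all 3 sun1-1 arrays, at 0.64, 0.60 and 1.13, closer together than on the resistant arrays. LOC102590282 gave -0.053, 0.045 and 1.13 there, and PSBR gave -0.40, -0.42 and 1.54, both highest on replicate 3.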

How the data were processed

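Leaf RNA was hybridised on 2-colour arrays of 32448 spots. The authors deposited log2 ratios of Cy3 and Cy5, numerator not stated, and limma is named, without a version, per the submitters' processing notes. Background correction, normalization and the reason for empty cells are not given in the sources used here. Spots of 1 clone (15360 pairs) were averaged. Values of sun1-1 27 h replicate 2 sat 1 row off and were moved back, by which the array's mean absolute r with the others went from 0.0115 to 0.172. With limma 3.58.1 in R 4.3.3, means of the 9 groups were fitted over all 30 arrays, with moderated tests, for clones and for symbols with clones averaged, over features with values on at least 2 arrays a side. The Benjamini-Hochberg adjustment ran over all features tested, at a threshold of 0.05. Exact permutation tests used the 7 arrays.

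Depth has no meaning for arrays, and their number limits the precision. The 7 arrays gave values for 2173 to 8628 clones, and duplicate spots correlated at r = 0.243 to 0.900. Spot agreement was taken for these 7 arrays only, and was lowest on susceptible replicate 2 and highest on resistant replicate 2. Of the spots, 1630 carry 1 symbol, 180 several and 30638 none.

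Symbols were named by a rule: the 10 with the smallest p in each direction, the 5 clones with the smallest p in each direction, up to 2 clones without a symbol in each direction, up to 5 symbols in each direction with at least 3 tested clones that agree, and the 44 symbols of the lists. The members, the rule and the lists were chosen with earlier results of these data known, and 17 of the 44 list symbols were added after the symbols on the array were read. Replicate numbers 1, 2 and 3 were not shown to pair the arrays of the genotypes: deviations from the group means correlated at -0.03, 0.24 and 0.13. The alternatives were other centring, scaling, filters, weights, variance models and sets of arrays, and each array left out in turn.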

Additional observations from a re-analysis of the deposited data

Results flagged for a closer look

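LOC102604696 stood apart on 1 resistant array at 9 h: its log2 ratio was -0.689 on replicate 2 and between -0.29 and -0.27 on the other 3. Its values were also of opposite sign in the genotypes, negative on 4 of 4 resistant arrays and positive on 3 of 3 susceptible arrays, with a difference of -0.514 (SE 0.230, limma adjusted p = 0.771). The difference was -0.41 without resistant replicate 2. LOC102586069 stood apart on resistant replicate 3, at 0.115 against -0.29 to -0.24 on the other 3 resistant arrays. SHMT was negative on every resistant array and positive on every susceptible array, with a difference of -0.551 and a limma adjusted p of 0.771. In all, 42 groups of arrays were examined for a value far from the rest and 2 had one, and chance gives about 1 in 20.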

How the results depend on the processing

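In each alternative run for clones, limma called 0, and the lowest adjusted p ran from 0.148 to 1.00. Among symbols 0 passed except for 1, LOC102598365, with the arrays scaled to one spread (adjusted p = 0.0129), with array quality weights (0.0262), with the replicate number as a block (0.0305) and without susceptible 9 h replicate 3 (0.0455), against 0.0129 to 0.416 over all its alternatives. With each array left out in turn, 0 to 1 symbols and 0 clones passed. Of 1454 differences of a named symbol or clone under an alternative, 37 changed sign, in 15 symbols of the lists and none past the threshold. With the arrays scaled, STWRKY8 was at -0.032, GAPDH at 0.036 and MS at 0.031, with quality weights GAPDH was at 0.053 and MS at 0.054, and with centred arrays GPI was at 0.00060. With the replicate block STWRKY8 was at -0.10 and GAPDH at 0.0042; the block changed no other call, and the numbers were not shown to pair the arrays. Without resistant replicates 3 and 4 DHAR2 was at -0.19, PDHE1-A at -0.14 and TS at -0.034. With 1 array left out, the range was -0.11 to 0.17 for STWRKY8, -0.22 to 0.67 for F3H, -0.011 to 0.26 for CAT1, -0.075 to 0.33 for DHAR, -0.072 to 0.14 for DHAR2, -0.32 to 0.74 for PPO, -1.19 to 0.11 for VPE2, -0.082 to 0.12 for GAPDH, -0.19 to 0.063 for PGAM, -0.076 to 0.15 for PDHE1-A, -0.29 to 0.11 for LPD2, -0.12 to 0.080 for MS, -0.012 to 0.21 for TS and -0.31 to 0.069 for SKT3. The cause of these moves was not tested. Counts of 2-fold clones, and the clones that could be tested, moved with the arrays used. With all arrays there were 45 higher and 8 lower of 5476. Without susceptible replicate 1 there were 12 and 10 of 4740, without replicate 2 76 and 22 of 5115, and without replicate 3 59 and 22 of 5053. Without resistant replicate 1 there were 27 and 5 of 3686. Turning the sign of resistant replicate 3 was not run, since no correlation with its group was below -0.3, and single spots were not fitted as symbols. Leaving out resistant replicates 3 and 4 together, and 27 h replicate 4, whose time label also conflicts, was chosen after seeing the data and gave 0 calls.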

Other observations

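LOC102587499, chosen here after its values were seen, split into sets of clones at 9 h. Of its 9 tested clones 4 followed one course: 1.28 to 1.59 on resistant replicate 1, 1.16 to 1.43 on replicate 2 and -0.34 to -0.04 on replicate 3. The other clones with a value on resistant replicate 2 lay between -1.03 and 0.40 there. The differences of the first 4 clones between the genotypes were 0.29 to 0.79, and those of the other 5 were -0.14 to 0.45, none of them past the test.

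BEL5, a homeodomain protein of the BEL1-like family whose mRNA is known in potato to move through the phloem, gave -0.16, -0.31, -0.21 and -0.13 on the resistant arrays at 9 h and 0.31, -0.0090 and -0.0088 on the susceptible arrays. The genotypes did not overlap, and the difference was -0.30 (SE 0.206, limma adjusted p = 0.882). LOC102597208 was positive on the 4 resistant arrays, at 1.09, 0.50, 0.47 and 0.049, and negative on the 3 susceptible arrays, at -0.52, -0.17 and -0.12, a difference of 0.80 (SE 0.430, adjusted p = 0.789). LOC102589825 had the same signs, with a difference of 0.35 (SE 0.191). These 3 symbols were chosen after their values were seen.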
